A study of Mus musculus with 24 samples.

Results

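Malat1, Neat1, Kcnq1ot1, Tug1, Firre, Ftx, Meg3 and Miat, 8 mouse long non-coding RNAs known from the nucleus, were followed through 24 libraries of GT1-7 cells. They were taken by gene name from the 57010 gene rows of each of the study's count tables, and each had 1 row in both; the RIP table lists identifiers only, which were named from the fractionation table. GT1-7 cells derive from mouse hypothalamic neurons and secrete gonadotropin-releasing hormone. The fractionation experiment compared unmodified cells (wt) with cells stably expressing GFP-Mkrn3 (Mkrn3ox), each as total and as cytoplasmic RNA, in libraries made by CEL-seq2, which reads the 3-prime ends of polyadenylated RNA. Per-sample labels name CEL-seq2 for the other experiment too, while the design text does not. The RNA immunoprecipitation (RIP) experiment used cells given 6 µg of a GFP plasmid or a GFP-Mkrn3 plasmid for 24 h. GFP-binding beads were added to the cleared lysate, and 5% of it was kept as input. Each of the 8 groups had 3 libraries. All groups are 1 cell line, and the labels do not say whether Mkrn3ox is a clone or a pool, so the transgene and other differences between the lines cannot be told apart. Nothing in the labels says that replicates came from separate cultures, so p-values measure the spread between these libraries, which may be technical.

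Long non-coding RNAs are transcripts without a long reading frame, and many stay at the chromatin or in nuclear bodies instead of being exported like mRNA. Malat1 is an abundant RNA of nuclear speckles, the bodies that store splicing factors, and Neat1 is the scaffold of paraspeckles, bodies that hold RNA-binding proteins such as Nono and Sfpq. Kcnq1ot1 is the long, largely unspliced antisense RNA that silences an imprinted domain on the paternal chromosome. Firre lies at chromatin and takes part in nuclear organisation, and Ftx belongs to the X inactivation centre near Xist. Tug1 is spliced and has been seen in both the nucleus and the cytoplasm. Meg3 is a maternally expressed imprinted RNA, and Miat, also called Gomafu, is a neuronal nuclear RNA. The study addressed RNA binding by Mkrn3 (makorin ring finger protein 3), a member of the makorin family of zinc-finger proteins.

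In GRCm38 (RefSeq annotation) Malat1 lies at chr19:5795690-5802672 and Neat1 on the same chromosome at chr19:5824708-5845480. Kcnq1ot1 spans chr7:143213111-143296547, inside the gene Kcnq1, and is the longest of the 8 loci at 83437 bases. Tug1 is at chr11:3639785-3648814, Firre at chrX:50563120-50635321, Ftx at chrX:103560910-103623754, Meg3 at chr12:109540996-109571729 and Miat at chr5:112213228-112228948. The deposited fractionation table types Tug1 as protein coding and the other 7 as lncRNA, whereas RefSeq types all 8 as lncRNA. The promoter windows of Kcnq1ot1 (chr7:143296498-143296797, minus strand) and Tug1 (chr11:3648765-3649064, minus strand) are shown because, of the tested members, these RNAs had the lowest and the highest ratio of cytoplasm to total RNA in wt cells and the highest and the lowest ratio of pull-down to input with both baits. Each runs 5′ to 3′ from 250 bases before the RefSeq start in lower case into the first 50 transcribed bases in capitals.
Kcnq1ot1: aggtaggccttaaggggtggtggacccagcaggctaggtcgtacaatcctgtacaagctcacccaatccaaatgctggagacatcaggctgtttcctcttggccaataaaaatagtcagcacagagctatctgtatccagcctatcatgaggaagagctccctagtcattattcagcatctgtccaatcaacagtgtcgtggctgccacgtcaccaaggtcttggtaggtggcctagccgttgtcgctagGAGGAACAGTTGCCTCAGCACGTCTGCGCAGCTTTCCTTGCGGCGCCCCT
Tug1: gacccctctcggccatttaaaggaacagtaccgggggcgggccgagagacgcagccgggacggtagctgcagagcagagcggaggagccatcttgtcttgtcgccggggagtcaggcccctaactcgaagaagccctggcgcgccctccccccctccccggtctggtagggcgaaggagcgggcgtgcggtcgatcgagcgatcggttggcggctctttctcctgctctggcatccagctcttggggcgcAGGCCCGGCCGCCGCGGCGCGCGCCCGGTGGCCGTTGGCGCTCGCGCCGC
The Kcnq1ot1 window held 3 matches to CCAAT on either strand, a motif found in 37.4% of 32851 such mouse windows, and none to TATAAA (13.6% of windows) or GGGCGG (35.7%). In the Tug1 window there was 1 match to GGGCGG and none to CCAAT or TATAAA. CpG dinucleotides numbered 9 in the Kcnq1ot1 window and 37 in the Tug1 window, against a median of 7 over all windows, and GC content was 53.3% and 71.3%.

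The fractionation libraries held 374386 to 759271 counts and the RIP libraries 6254703 to 14575652, so most members were read with far fewer counts in the former. The common spread between replicates (edgeR's biological coefficient of variation) came to 0.384 with 5033 genes tested and to 0.115 with 13052. Of 8 markers of neurons and the GnRH neuron line, 7 had any count in each table, with Rbfox3 at 0 in the fractionation table and Snap25 at 0 in the RIP table. This measure is loose, as Snap25 had at most 1 count in a fractionation library and Rbfox3 at most 4 in a RIP library. By the same measure 4 of 6 markers of astrocytes and oligodendrocytes were detected in each table. Of 7 markers of fibroblasts, endothelium and immune cells, 3 were detected in the fractionation table and 6 in the RIP table. Gnrh1 itself had 11 to 86 counts in the libraries of the first experiment and 449 to 3060 in those of the second. Markers of astrocytes and oligodendrocytes summed to 0 to 37.6 CPM in the fractionation libraries and 15.5 to 24.0 in the RIP libraries, and those of fibroblasts, endothelium and immune cells to 0 to 98.1 and 24.5 to 59.9. In the latter set Col1a1 alone reached 91.5 and 57.4 CPM, and Cd68, Pecam1, Cdh5 and Aif1 were at 0 in the fractionation table. In the RIP libraries Cd68 had 14 to 47 counts, and Ptprc was at 0. Col1a1 was higher in Mkrn3ox than in wt total RNA (log2 change 3.05, adjusted p under 0.05, edgeR). Libraries of the same group correlated at 0.798 to 0.864 in the fractionation experiment and at 0.978 to 0.993 in the RIP experiment (log2 CPM across genes). The lowest RIP value was that of GFP-Mkrn3 IP replicates 2 and 3. Within a group, fewer cells of a type and less RNA per cell cannot be told apart. Levels below are edgeR CPM values (counts scaled to a common library total) on its TMM scale, which corrects library size for composition.

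The tables were normalised separately, and how the counting treated strand is unknown here. By library size alone, the row of Tsix, which is antisense to Xist, stood at 2898 ± 327 CPM (SD, n = 3) in wt total RNA and at 0.266 ± 0.290 in the GFP input. Xist stood at 234 ± 36.0 and 57.3 ± 10.6. The pair therefore had opposite orders in the tables, and a fractionation value is that of the named row, which may hold reads of the opposite strand. Malat1 was at 131 ± 31.0 CPM in wt total RNA and at 5783 ± 629 in the GFP input, 44.2 times as much. The same ratio of GFP input to wt total RNA was 10.3 for Neat1, 1.31 for Tug1 and 1.15 for Firre. It was below 1 for Kcnq1ot1 (0.273) and Ftx (0.279), so the members did not keep 1 common ratio between the tables. The strand's part in these ratios was not tested.

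**Figure D1:**
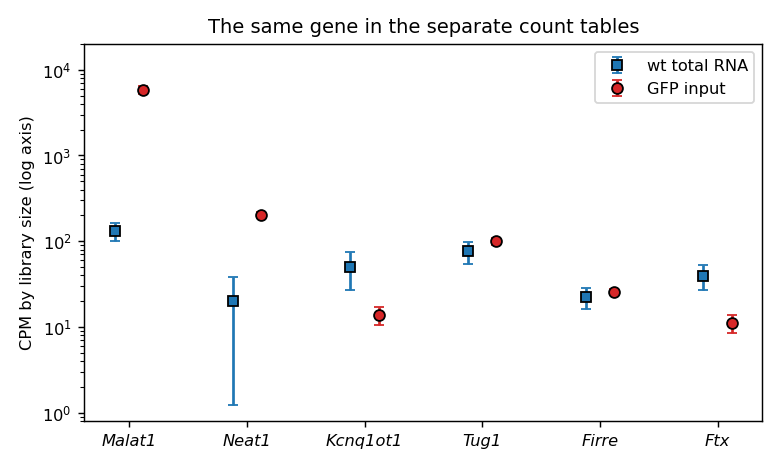
Mean CPM by library size (log axis) of 6 members in the wt total RNA (squares) and the GFP input (circles), with SD over 3 libraries; a lower bar that would pass 0 is clipped. Malat1 and Neat1 lie higher in the GFP input, and Kcnq1ot1 and Ftx lie higher in wt total RNA.

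Meg3 and Miat were at or near 0. Miat had 0 counts in all 24 libraries, and Meg3 had 0 in the 12 RIP libraries and 3 in the 12 fractionation libraries, 2 in wt total replicate 2 and 1 in Mkrn3ox cytoplasm replicate 3. Over the 105590627 RIP counts, a count of 0 allows up to 0.0284 CPM (3 counts, counting error only). Over the 6303670 fractionation counts, 3 counts correspond to 0.476 CPM. Neither gene passed edgeR's filter on low counts in any comparison. Of the other 6 members, all were tested in the RIP experiment and 5 in the fractionation experiment, where Neat1 did not pass the filter.

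Malat1, Kcnq1ot1 and Firre were lower in the cytoplasm than in total RNA of wt cells, and Tug1 was not called different. These were 3 of the 5 tested members, all lower, in a comparison that called 3.78% of 5033 genes, 3.16% lower and 0.616% higher, at an adjusted p under 0.05 (edgeR quasi-likelihood test, Benjamini-Hochberg). In the Mkrn3ox line 2 of 5 were called, Malat1 and Kcnq1ot1, both lower, against 4.53% of all genes, 3.76% lower and 0.775% higher. Malat1, Kcnq1ot1 and Firre had 0 to 6 counts in each cytoplasmic library and passed the filter on low counts through total RNA. A call of higher was thus hardly open to them, so the shares of all genes are no test of these calls. The difference of the cytoplasm-to-total ratio between the lines was called for 0 of 5 members (0.219% of all genes), with adjusted p of 0.703 to 0.959. DESeq2 called 0 too, and 0 had an unadjusted p under 0.05 in edgeR.

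Malat1 had 76, 96 and 82 counts in the 3 wt total libraries and 4, 5 and 0 in the wt cytoplasm. In CPM this was 135 ± 24.2 against 6.99 ± 6.06, and no cytoplasmic library reached any total library. The log2 fold change was -4.17 (SE 0.614, adjusted p = 0.000165). Mkrn3ox cells had 47, 48 and 30 counts in total and 6, 3 and 1 in cytoplasmic RNA (74.7 ± 21.5 and 8.23 ± 6.46 CPM). There the change was -3.19 (adjusted p = 0.00306), again without overlap.

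Kcnq1ot1 had 15, 35 and 51 counts in wt total RNA and 1, 0 and 0 in the wt cytoplasm. The pooled counts, 101 against 1, gave a 64.7-fold lower cytoplasmic level, with an exact interval for counting error of 11.4 to 2581. Its fitted log2 change was -5.59 (SE 0.999, adjusted p = 0.00127). Mkrn3ox libraries had 13, 23 and 21 counts in total RNA against 0, 0 and 1, a 42.9-fold lower level (7.39 to 1723) with an adjusted p of 0.00469. Kcnq1ot1 thus had 1 cytoplasmic count in each line, and its cytoplasmic and total libraries did not overlap. The Kcnq1 row, whose gene encloses it, was at 0 in the fractionation and had at most 5 counts in a RIP library.

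Firre counts were 15, 16 and 12 in wt total RNA and 0, 0 and 1 in the cytoplasm, 27.6-fold lower in the pooled counts (4.69 to 1113). This call was the least firm. The log2 change of -4.43 had an SE of 1.20 and an adjusted p of 0.0384, and 7 of 12 alternative analyses lost the call. Leaving out wt cytoplasm replicate 1 or 2 gave adjusted p of 0.137 and 0.163, and leaving out wt total replicate 1, 2 or 3 gave 0.0965, 0.119 and 0.0739. In Mkrn3ox cells the counts were 14, 19 and 4 against 1, 1 and 1, and the change of -3.11 was not called (adjusted p = 0.0952).

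Neat1, which was not tested, had 5, 24 and 8 counts in wt total RNA and 0, 0 and 2 in the wt cytoplasm. The pooled 37 against 2 counts gave an 11.9-fold lower cytoplasmic level (3.06 to 102, counting error only), and the libraries did not overlap. Mkrn3ox cells had 7, 8 and 1 counts in total RNA and 2, 5 and 0 in the cytoplasm, where the libraries overlapped and the ratio was 1.72 (0.669 to 4.94).

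Tug1 was not called different between cytoplasm and total RNA in either line. Its wt counts were 33, 53 and 65 in total RNA and 20, 43 and 25 in the cytoplasm, or 77.9 ± 16.0 and 70.5 ± 19.9 CPM, and the libraries overlapped. The log2 change was -0.14 (95% interval -0.96 to 0.68, adjusted p = 0.916). Mkrn3ox cells had 29, 27 and 33 counts in total RNA and 31, 12 and 24 in the cytoplasm, with a change of 0.00 (-0.84 to 0.85, adjusted p = 1.00). At this depth the wt interval leaves room for a cytoplasmic level lower by up to 0.96 on the log2 scale.

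Ftx had 34, 16 and 29 counts in wt total RNA and 11, 1 and 0 in the wt cytoplasm, so that cytoplasmic replicate 1 overlapped the total libraries. Its change of -2.04 was not called (SE 1.09, adjusted p = 0.380). In Mkrn3ox cells it had 5, 0 and 10 counts in total RNA and 0 in each cytoplasmic library, at least 3.76-fold lower against a floor of 3 counts over the group. That comparison was not called either (adjusted p = 0.168), and 1 total library was itself at 0.

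**Figure D2:**
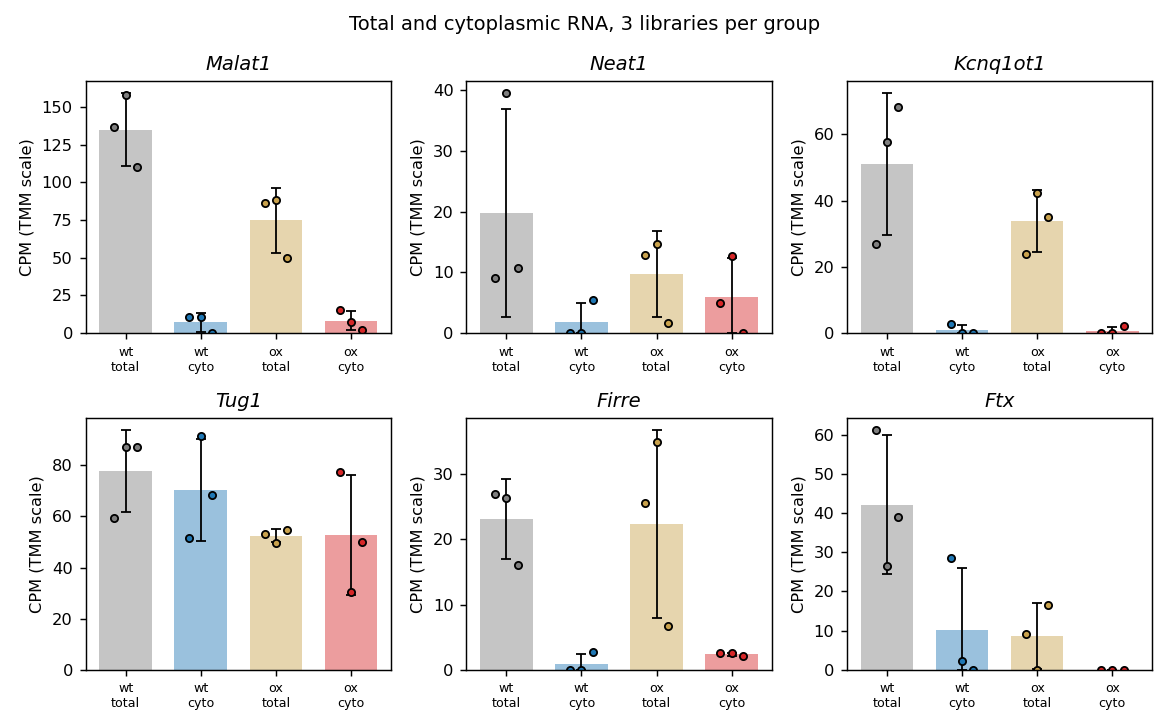
CPM (TMM scale) of 6 members in wt and Mkrn3ox (ox) total and cytoplasmic (cyto) RNA; points are libraries, bars are means and error bars are SD (n = 3), clipped at 0. The cytoplasmic points of Malat1 and Kcnq1ot1 all lie under the total points of the same line, while those of Tug1 overlap.

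Between the lines, 0 of 5 members were called in total RNA (7.39% of all genes) and 0 of 5 in the cytoplasm (10.5%). The DESeq2 test also called 0 in each, and at an unadjusted p under 0.05 in edgeR there was 1 member in each, Ftx. Malat1 did not overlap between the lines in total RNA, with 109.9 CPM in the lowest wt library and 88.4 in the highest Mkrn3ox library, but its log2 change of -0.85 had an interval from -1.83 to 0.12 (adjusted p = 0.355). Ftx was at 42.2 ± 17.7 CPM in wt and 8.59 ± 8.33 in Mkrn3ox total RNA, also without overlap, with a change of -2.25 (SE 1.07, adjusted p = 0.268). In the cytoplasm its 12 wt counts, 11, 1 and 0 by library, stood against 0 in each Mkrn3ox library, so the groups overlapped. Pooled, this was at least 4.16-fold lower with the Mkrn3ox group set to a floor of 3 counts. That limit takes the wt counts as exact, though nearly all came from 1 library. The adjusted p of Ftx there was 0.0983 in edgeR, or 0.0393 with no filter on low counts. Xist, its neighbour in the X inactivation centre, was at 242 ± 25.5 CPM in wt total RNA and at 0 counts in all 3 Mkrn3ox total libraries. In the cytoplasm Xist was at 4.61 ± 3.37 CPM in wt and 5.06 ± 5.09 in Mkrn3ox cells (0 to 4 counts per library, adjusted p = 0.997). It was 1 of the 11 genes called for the difference of the cytoplasm-to-total ratio (adjusted p = 0.00379), which rests on the 0 counts in Mkrn3ox total RNA. The Tsix row, which may hold reads of Xist, was called for that difference too. It was also called lower in Mkrn3ox than in wt cells, both in total RNA and in the cytoplasm. In total RNA Firre, also on the X chromosome, was at 23.2 ± 6.13 CPM in wt and 22.4 ± 14.4 in Mkrn3ox cells (adjusted p = 0.983). Kcnq1ot1 stood at 51.0 ± 21.4 and 33.7 ± 9.36 CPM (adjusted p = 0.699) and Tug1 at 77.9 ± 16.0 and 52.5 ± 2.61 (adjusted p = 0.501). The Tug1 libraries did not overlap either, at 59.5 CPM in the lowest wt and 54.9 in the highest Mkrn3ox library. Malat1, Ftx and Tug1 were not called, and the share of all genes without overlap was not counted. Their separation is therefore not read as a difference between the lines.

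In the RIP experiment Kcnq1ot1, Neat1, Ftx, Firre and Malat1 were higher on the beads than in the input when the bait was GFP alone, and the first 4 of these were also higher with GFP-Mkrn3. GFP alone is the control of this assay, so these are levels of the RNAs in the control pull-down. With GFP, 5 of 6 tested members were called, all higher, where 50.3% of 13052 genes were called and 25.1% were higher. With GFP-Mkrn3, 5 of 6 were called, 4 higher and 1 lower, against 26.7% of all genes, 13.9% higher and 12.8% lower. Scaling by library size alone called 2554 genes higher and 3952 lower with GFP, against 3274 and 3291 on the TMM scale, and 2599 and 1263 with GFP-Mkrn3, against 1812 and 1675. The inputs of the GFP-Mkrn3 and GFP cells differed in 0 of 6 members (0.0153% of all genes), with log2 differences of -0.32 to 0.07 and with 0 called by DESeq2 or at an unadjusted p under 0.05 in edgeR.

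Among the members Kcnq1ot1 had the largest ratio of pull-down to input. Its counts were 120, 95 and 116 in the GFP input and 1078, 996 and 922 in the GFP IP, or 13.7 ± 3.21 and 139 ± 17.1 CPM. Every IP library was far above every input library, a log2 change of 3.36 (SE 0.177, adjusted p = 8.26e-11), or 10.2-fold, at rank 193 of 13052 genes from the top. With GFP-Mkrn3 the counts were 120, 107 and 115 in the input and 1217, 1203 and 1094 in the IP (14.2 ± 1.01 and 104 ± 23.7 CPM). The change was 2.86 (SE 0.175, adjusted p = 1.32e-09), or 7.27-fold. This is the RNA whose promoter is shown first above and whose cytoplasmic libraries held 0 or 1 count.

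Neat1 rose from 1526, 1643 and 1817 counts in the GFP input to 5710, 4646 and 4265 in the GFP IP (203 ± 14.7 and 676 ± 91.8 CPM). The log2 change was 1.73 (SE 0.144, adjusted p = 1.81e-08) and the libraries did not overlap. With GFP-Mkrn3 it rose from 192 ± 6.21 to 501 ± 129 CPM, a change of 1.38 (adjusted p = 2.3e-06). The GFP-Mkrn3 IP libraries were less even, at 537, 358 and 607 CPM.

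Ftx counts went from 94, 97 and 75 in the GFP input to 218, 237 and 156 in the GFP IP (10.99 ± 2.62 and 27.8 ± 1.31 CPM), a log2 change of 1.35 (SE 0.180, adjusted p = 5.57e-06). With GFP-Mkrn3 they went from 69, 72 and 74 to 338, 352 and 284 (8.92 ± 0.509 and 28.4 ± 5.10 CPM), a change of 1.66 (adjusted p = 4.21e-06). Input and IP libraries did not overlap with either bait. Firre went from 185, 227 and 215 counts to 375, 306 and 217 with GFP (25.5 ± 1.56 and 40.8 ± 6.36 CPM, change 0.68, adjusted p = 0.000913). With GFP-Mkrn3 it went from 20.4 ± 1.29 to 34.6 ± 6.39 CPM, a change of 0.75 (adjusted p = 0.0014), and its libraries were apart with both baits.

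Malat1 was higher on GFP beads, with 6491, 5337 and 5384 CPM in the input and 8897, 7136 and 9658 in the IP. The log2 change was 0.58 (SE 0.174, adjusted p = 0.0098), and 0.48 with an adjusted p of 0.0525 without GFP IP replicate 3. With GFP-Mkrn3 the input was at 5292, 5198 and 4871 CPM and the IP at 5717, 3341 and 6980, so that the groups overlapped. That change of 0.06 was not called (adjusted p = 0.821), and without GFP-Mkrn3 IP replicate 2 it was 0.31 with an adjusted p of 0.0367.

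Tug1 was not called higher on either kind of bead. It stood at 93.9, 94.3 and 109 CPM in the GFP input and 99.3, 105 and 110 in the GFP IP, which overlapped, a log2 change of 0.08 (95% interval -0.13 to 0.28, adjusted p = 0.536). Library size alone turned that sign (-0.03). With GFP-Mkrn3 it stood at 97.7, 107 and 101 CPM in the input and 78.6, 73.2 and 88.3 in the IP, without overlap. The change was -0.35 (SE 0.0959, adjusted p = 0.0113), and the adjusted p was 0.0602 without GFP-Mkrn3 input replicate 2.

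**Figure D3:**
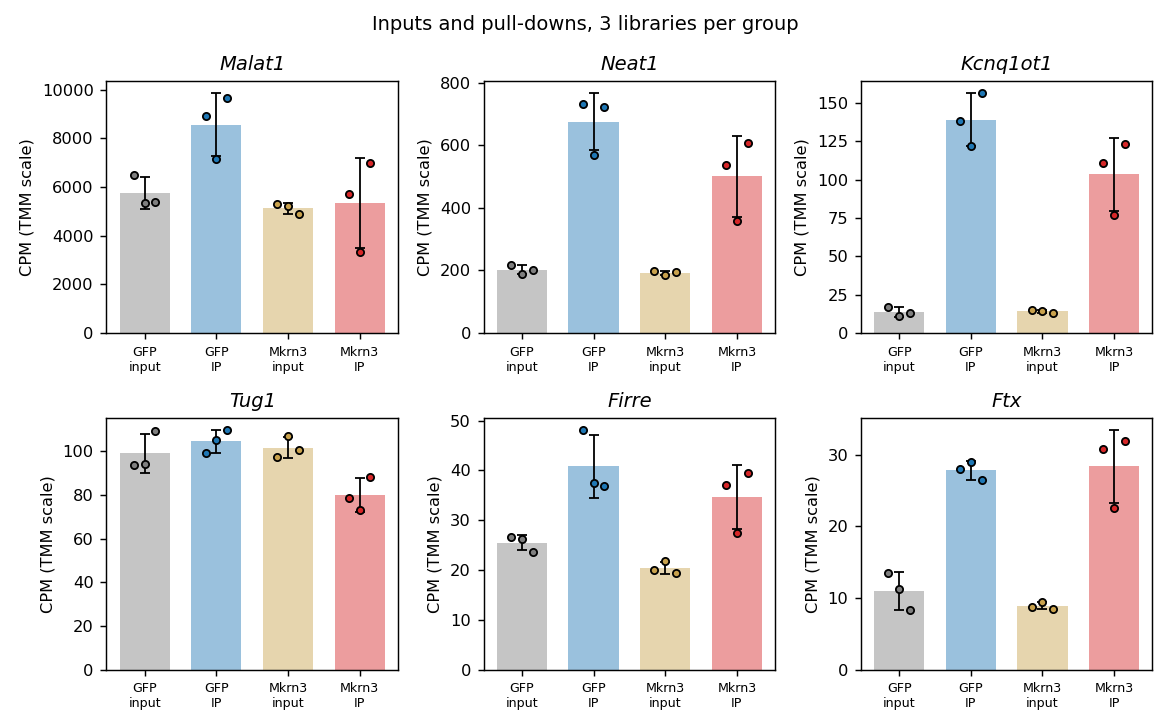
CPM (TMM scale) of 6 members in GFP and GFP-Mkrn3 (Mkrn3) inputs and pull-downs (IP); points are libraries, bars are means and error bars are SD (n = 3). Kcnq1ot1, Neat1 and Ftx rise from input to IP with both plasmids, and the lowest point of the GFP-Mkrn3 IP is replicate 2 for all 6 members.

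**Figure D4:**
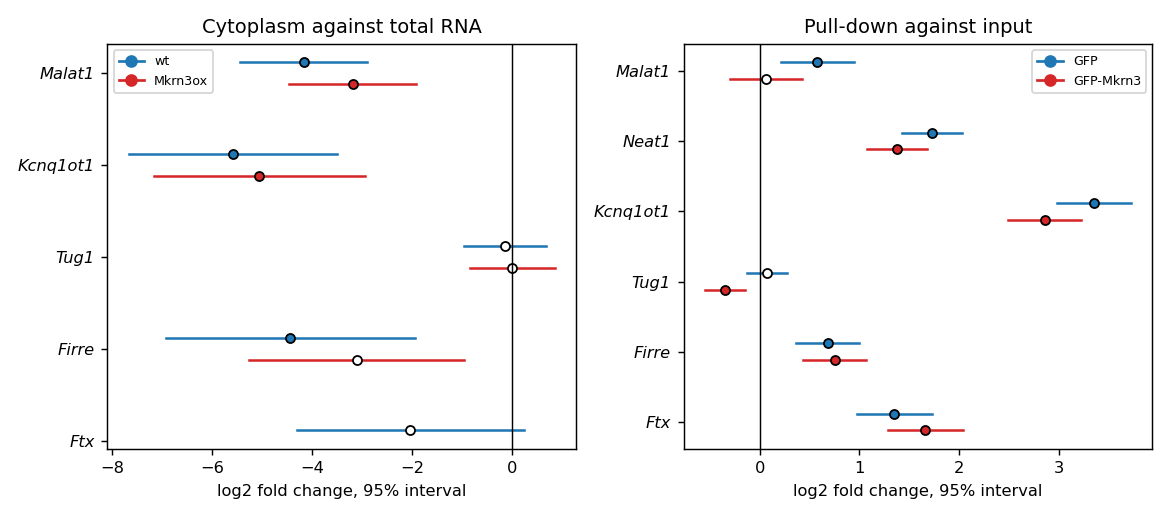
Log2 fold changes with 95% intervals (edgeR) of cytoplasm against total RNA (left) and of pull-down against input (right); filled points have an adjusted p under 0.05. Neat1 was not tested on the left, and Ftx in Mkrn3ox is left out there because its cytoplasmic libraries were all at 0.

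The members were not the only rows to rise on the beads, and the deposited gene types differed. Rows typed TEC, an annotation class of transcripts that still await experimental support, were higher in the GFP IP in 370 of 487 tested rows (76%, with 1.64% lower, median log2 change 2.51) and in the GFP-Mkrn3 IP in 321 (65.9%, median 2.27). Among 772 other lncRNA rows 15.9% were higher and 16.5% lower with GFP, and among 11315 protein-coding rows 23.9% and 26.9%. With GFP-Mkrn3 the shares were 11.1% higher and 4.92% lower for the lncRNA rows and 12% and 13.9% for the protein-coding rows. Some TEC rows were near 0 in the input, such as Gm42992, at 0.294 CPM in the GFP input and 6.67 in the GFP IP. Rows of this kind could pass the filter on low counts through the pull-down alone. A call of lower was hardly open to them, so the TEC shares and medians are no test. How many TEC rows passed in this way was not counted. With GFP, Kcnq1ot1 at 3.36 was above the TEC median, and Ftx and Neat1 were below it. Whether what raised the TEC rows had a part in the members' values was not tested.

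Set against the GFP pull-down, the GFP-Mkrn3 pull-down held less Malat1, Neat1, Kcnq1ot1 and Tug1. These were 4 of 6 tested members, all lower, where 37.6% of all genes were called, 20.4% higher and 17.2% lower. The log2 differences were -0.68 for Malat1 (SE 0.175, adjusted p = 0.00466), -0.43 for Neat1 (adjusted p = 0.0187), -0.43 for Kcnq1ot1 (adjusted p = 0.0303) and -0.39 for Tug1 (adjusted p = 0.00351). The libraries were apart for Malat1 and Tug1 and overlapped for Neat1 and Kcnq1ot1. Firre at -0.25 (-0.55 to 0.06, adjusted p = 0.195) and Ftx at 0.02 (-0.33 to 0.37, adjusted p = 0.943) were not called. By library size alone, which moved the median of all genes from 0.03 to 0.21 and the split from 2661 higher and 2246 lower to 4104 and 1154, Malat1 was the 1 member still called. Without GFP-Mkrn3 IP replicate 2, Neat1 was at -0.24 (adjusted p = 0.0656) and Kcnq1ot1 at -0.25 (adjusted p = 0.136). Both calls were also lost without GFP IP replicate 1 (adjusted p = 0.0909 and 0.0768) and without GFP IP replicate 3 (0.076 and 0.145).

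When each pull-down was divided by its own input, 1 of 6 members differed between the baits, Tug1, where 24.3% of all genes were called, 13.2% higher and 11.1% lower. By this measure 0 members were called higher with GFP-Mkrn3 than with GFP. The Tug1 difference was -0.43 (SE 0.136, 95% interval -0.71 to -0.14, adjusted p = 0.0292), and 10 of 18 alternatives lost the call, 8 of them by leaving out 1 library, with adjusted p of 0.0526 to 0.0799. The other values were -0.52 for Malat1 (-1.03 to -0.0006, adjusted p = 0.137), -0.49 for Kcnq1ot1 (-1.01 to 0.02, adjusted p = 0.156) and -0.35 for Neat1 (-0.77 to 0.06, adjusted p = 0.208). Firre was at 0.07 (-0.37 to 0.52, adjusted p = 0.843) and Ftx at 0.31 (-0.22 to 0.84, adjusted p = 0.408). Without GFP-Mkrn3 IP replicate 3 there were 4 calls, all lower, with Malat1 at -0.76, Kcnq1ot1 at -0.64 and Neat1 at -0.52 beside Tug1, and without replicate 2 there were 0. Library size alone gave 0 calls and a split of 2845 higher and 603 lower, against 1724 and 1454. With no filter on low counts the 1 called member was Malat1 (-0.50, adjusted p = 0.000174), and Tug1 had an adjusted p of 0.0652.

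**Figure D5:**
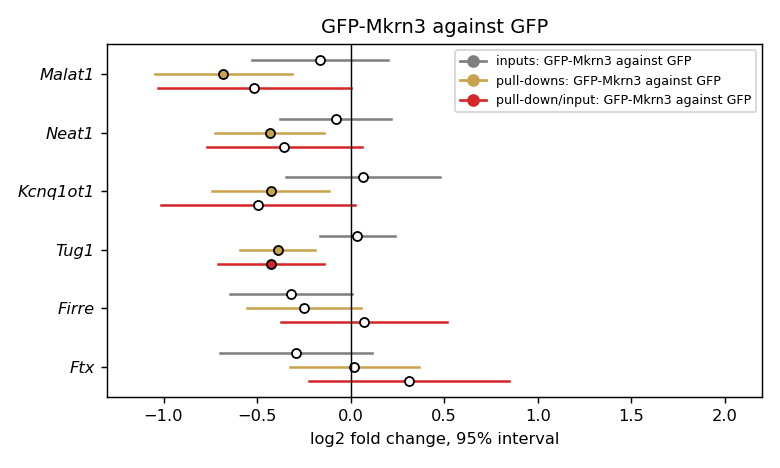
Log2 fold changes with 95% intervals (edgeR) of GFP-Mkrn3 against GFP for 6 members in the inputs, in the pull-downs and in the ratio of pull-down to input; filled points have an adjusted p under 0.05. The pull-down points of Malat1, Neat1, Kcnq1ot1 and Tug1 lie below 0, and in the ratio the Tug1 point is the filled one.

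Morc2a, which encodes a chromatin-compacting ATPase, was the 1 gene within 5 kb of a member that had 20 or more counts in a table, and it lies 375 bases from Tug1. It stood at 154 ± 15.5 CPM in the GFP input and 241 ± 13.8 in the GFP IP, a log2 change of 0.64 (adjusted p = 3.72e-05). With GFP-Mkrn3 it stood at 154 ± 7.96 and 149 ± 20.5, and the difference between the baits was -0.70 (adjusted p = 0.00181). Tug1 and Morc2a were thus both lower with GFP-Mkrn3 by this measure, and Morc2a, unlike Tug1, was called higher on GFP beads. Without the strand setting, reads of neighbouring transcripts cannot be assigned with certainty.

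The mRNAs of the proteins that form paraspeckles with Neat1 were mostly higher in the GFP pull-down. Of 14 tested, 10 rose and 1 fell, with a median log2 change of 0.46 against -0.0045 over all genes, or 7 and 1 by library size alone. Of all genes 25.1% were higher and 25.2% lower. Taf15, an RNA-binding protein of paraspeckles, rose by 0.85 and Sfpq, a core paraspeckle protein, by 0.67, while Dazap1 fell by 0.56. With GFP-Mkrn3 the counts were 2 higher and 1 lower, Rbm14 (0.43), Cpsf7 (0.28) and Nono (-0.34), or 4 and 0 by library size alone. Of all genes 13.9% were higher and 12.8% lower with that bait. The ratio to input was lower with GFP-Mkrn3 than with GFP for 8 of 14 and higher for 0, where 11.1% of all genes were lower and 13.2% higher. Taf15 (-0.98), Tardbp (-0.85) and Hnrnph3 (-0.74) were among the 8. By library size alone the ratio was lower for 4 and higher for 1. These comparisons share the GFP libraries, so their values are not independent of each other.

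Speckle protein mRNAs, the set that goes with Malat1, were in part lower in the cytoplasm. In wt cells 3 of 15 tested were lower in the cytoplasm and 0 higher: Srsf5 (-2.78), Srsf11 (-1.68) and Srsf2 (-1.20), which encode serine- and arginine-rich splicing proteins. Mkrn3ox cells gave 4 of 15, with Srsf5 (-2.73), Srsf11 (-2.23), Srsf2 (-1.41) and Rbm25 (-1.24), another splicing factor. Of all genes 3.16% were lower in the cytoplasm of wt cells and 3.76% in that of Mkrn3ox cells. On GFP beads 5 of 16 rose and 3 fell, shares near those of all genes (25.1% higher and 25.2% lower). Those that rose included Prpf8 (1.07), Rbm25 (0.75), Son (0.72), the core protein of speckles, and Thrap3 (0.59). With GFP-Mkrn3, where 13.9% of all genes were higher and 12.8% lower, 3 of the 16 rose and 2 fell. Prpf8 (0.79) and Son (0.46) were among those that rose and Srsf3 (-0.62) among those that fell. Library size alone gave 7 higher and 2 lower there, and leaving out GFP-Mkrn3 IP replicate 2 gave 5 and 2. Relative to input, 2 of the 16 were called different between the baits, Srsf2 (0.92) and Thrap3 (-0.55), against 24.3% of all genes. Without that replicate 2 were higher and 4 lower.

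Of 14 tested mRNAs for proteins known to bind the members or the chromatin they act on, 8 rose and 1 fell on GFP beads (median 0.37). They included Dnmt1, the maintenance DNA methyltransferase (1.07), Hnrnpu, which holds Xist and Firre at chromatin (0.80), Jarid2, a Polycomb cofactor (0.61), and Matr3 (0.58). With GFP-Mkrn3 1 rose and 4 fell (Khsrp, -0.54, Ezh2, -0.39, Suz12, -0.34, and Sf1, -0.27). That balance turned to 2 higher and 1 lower by library size alone, and it was 1 and 2 without GFP-Mkrn3 IP replicate 2. Relative to input 6 were lower with GFP-Mkrn3 and 0 higher, led by Hnrnpu (-0.87) and Dnmt1 (-0.82), or 3 lower and 1 higher by library size alone. In the fractionation 11 were tested and 0 called in either line. Genes of nuclear RNA turnover gave 5 higher and 2 lower of 13 on GFP beads, with Mtrex, a nuclear exosome helicase (0.87), and Zfc3h1 (0.71) among the former and Rbm7 (-1.27) among the latter. Of all genes 25.1% were higher and 25.2% lower there, and by library size alone 3 of the 13 were higher and 2 lower. With GFP-Mkrn3 4 were higher and 3 lower. Of all genes 13.9% were higher and 12.8% lower with GFP-Mkrn3, and 13.2% were higher and 11.1% lower in the difference between the baits relative to input.

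Other nuclear or chromatin non-coding RNAs had 6 tested members on the beads, of which Xist, which coats the inactive X chromosome, and Dleu2 rose with both baits and 0 fell. Xist rose by 2.87 with GFP (56.9 ± 10.7 to 414 ± 62.3 CPM, adjusted p = 4.55e-10) and by 2.43 with GFP-Mkrn3, and Dleu2 by 0.72 and 0.82. Neither was called different between the baits relative to input. Non-coding RNAs with spliced cytoplasmic forms, mostly hosts of small nucleolar RNAs, gave 1 higher and 8 lower of 13 on GFP beads (median -0.89). Snhg3 (-2.13), Snhg1 (-1.56) and Snhg8 (-1.51) were among those lower, and Epb41l4aos (-2.29) had 0.514 CPM in the GFP IP. With GFP-Mkrn3 Snhg17 rose (0.63) and Snhg3 (-0.95) and Snhg8 (-0.82) fell, or 1 rose and 1 fell without GFP-Mkrn3 IP replicate 2. Relative to input 4 were higher with GFP-Mkrn3 than with GFP (Epb41l4aos, 2.87, Snhg1, 2.01, Zfas1, 1.04, and Gas5, 0.63), or 8 by library size alone. In the fractionation 5 of this list were tested and 0 called in either line. Their median log2 change of cytoplasm against total was -1.48 in wt and -1.13 in Mkrn3ox cells, against 0.0148 and -0.00134 over all genes. The name of the list is thus not a result for these cells. Of 3 tested imprinted genes near Kcnq1ot1 or Meg3, Cd81 was called higher with both baits (0.33 and 0.32), although 1 was lower and 0 higher with GFP by library size alone. Of 18 abundant cytoplasmic mRNAs 5 rose and 8 fell with GFP and 2 rose and 6 fell with GFP-Mkrn3, or 1 and 9 without GFP-Mkrn3 IP replicate 2. Beside the counts of all these lists, 25.1% of all genes were higher and 25.2% lower with GFP, and 13.9% and 12.8% with GFP-Mkrn3. For the difference between the baits relative to input, 13.2% of all genes were higher and 11.1% lower with GFP-Mkrn3.

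Over the 12 RIP libraries, Pearson's r of log2(CPM + 1) among 11308 genes with a mean of at least 20 counts named the genes whose levels moved most like each member. The libraries fall into inputs and pull-downs, so these values mostly describe that split and are given without a test. Kcnq1ot1 was most like Xist (0.997) and the TEC row Gm42992 (0.992), and Ftx was most like the TEC rows C130089K02Rik (0.991) and Gm42603 (0.985). Neat1 was most like Lncpint, another lncRNA (0.987), and Nopchap1 (0.987), and Firre like the TEC row Gm38077 (0.961) and Dleu2 (0.949). Malat1 was most like Utp18 (0.967) and Daam1 (0.946), and Tug1 like Med13 (0.964) and Sec63 (0.956), all 4 protein-coding. Kcnq1ot1, Neat1, Ftx and Firre, called higher with both baits, had non-coding or TEC rows nearest to them, except for Nopchap1. As r mostly follows the split and TEC rows rose on the beads too, this is no separate result.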

How the data were processed

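RNA was measured in 12 fractionation and 12 RIP libraries of GT1-7 cells. The authors deposited raw counts per gene, and cutadapt, STAR, HTSeq and the mm10 build are named in the submitters' processing notes. Versions, annotation, strand handling and the treatment of molecular identifiers are unknown here. RNA was DNase-treated, per the labels' protocols. Groups came from the labels. Gene names came from the deposited tables, and loci and promoter windows from RefSeq tables of GRCm38.p6, where 7 of the 8 members had a window.

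Each experiment was fitted separately in edgeR 4.0.16 (R 4.3.3): TMM scaling, filterByExpr, group means with no covariate, a two-sided quasi-likelihood F test and Benjamini-Hochberg adjustment over all tested genes, for 10 contrasts. Intervals are 95%. Count ratios have exact binomial intervals, and a group at 0 was set to a floor of 3 counts over the group, both covering counting error only. Alternatives were DESeq2 1.42.0 (size factors, test), library size alone, no filter, the compared groups alone, replicate blocks and leaving out each library. The fits were tested on simulated data.

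The members, the 8 gene lists and 3 marker lists were chosen with earlier results of these data known. Genes named are the members, neighbours within 5 kb with at least 20 counts, up to 4 called members of a list by size of change, and the 2 genes most like each member, with Xist, Tsix and Kcnq1 beside them as X-linked or overlapping genes. The values of 1 listed gene are not reported here. List counts without GFP-Mkrn3 IP replicate 2 were an alternative chosen after seeing the data.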

Additional observations from a re-analysis of the deposited data

Results flagged for a closer look

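The ratio of pull-down to input of Tug1 differed between the baits by -0.43 on the log2 scale (SE 0.136, adjusted p = 0.0292 in edgeR's test of the difference itself, n = 3 per group). It was 0.08 with GFP and -0.35 with GFP-Mkrn3. The 3 GFP-Mkrn3 IP libraries, at 73.2 to 88.3 CPM, all lay below the 9 other RIP libraries, which ranged from 93.9 to 110. The share of all genes separated in this way was not counted. In the test of the difference 24.3% of all 13052 genes were called, 11.1% lower, so a call was common. Over the alternatives the Tug1 difference kept its sign and ranged from -0.50 to -0.23, with adjusted p of 0.00471 to 0.205. The call was lost in 10 of 18 alternatives. By library size alone it was -0.23, where the median of all genes was 0.23.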

How the results depend on the processing

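Depth limits the fractionation results, since cytoplasmic libraries held 0 to 11 counts of each tested member but Tug1. Kcnq1ot1 and Malat1 (cytoplasm against total, both lines) and Kcnq1ot1, Neat1, Ftx and Firre (pull-down against input, both baits) kept direction and call in every alternative run. Over the members, 671 results kept both, 30 lost and 6 gained a call, and 34 turned sign, all 34 of them not called; causes were not tested.

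Genes called numbered 125 to 153 without 1 library for cytoplasm against total in Mkrn3ox (228 in full) and 234 to 306 for Mkrn3ox against wt total (372 in full). For the ratio difference, 11 in full, there were 43 with no filter, 43 with the DESeq2 test and 8 to 35 without 1 library. For the inputs, 2 in full, there were 34 with no filter, 4 with the DESeq2 test, 4 with the compared groups alone and 1 to 3 without 1 library. Members called numbered 0 by library size alone and 0 to 4 without 1 library for pull-down over input between baits (1 in full), 1 by library size alone, 2 with the compared groups alone and 2 to 4 without 1 library for the pull-downs (4 in full), and 1 with no filter for Mkrn3ox against wt cytoplasm (0 in full). Library size alone moved the median of all genes from 0.03 to 0.38 and the split of calls from 217 higher and 309 lower to 507 and 189 in that last comparison. In total RNA it moved the split from 179 and 193 to 252 and 163, and for the ratio difference from 4 and 7 to 8 and 6.

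Signs that turned, by log2 change: Tug1 in Mkrn3ox cytoplasm against total was -0.00840 with DESeq2 size factors, -0.0845 with no filter, -0.0135 with the DESeq2 test, -0.0667 with the replicate block within the line and -0.38 to 0.26 without 1 library. Without 1 library it was -0.38 to 0.0344 in wt, -0.24 to 0.40 for the ratio difference and -0.0015 to 0.11 for the inputs, and by library size alone -0.0333 in the GFP pull-down. Kcnq1ot1 was -1.52 to 2.68 for the ratio difference, -0.0685 to 0.25 for the inputs and -2.13 to 2.07 between the cytoplasms without 1 library, and 0.20 there by library size alone. Malat1 was -0.63 to 0.61 between the cytoplasms and -0.18 to 0.31 for GFP-Mkrn3 pull-down against input without 1 library, and -0.000725 there with the replicate block within the plasmid. Firre was -0.52 to 0.37 between the total RNAs and -0.0349 to 0.22 for pull-down over input between baits without 1 library, and 0.0678 between the total RNAs by library size alone. Ftx between the pull-downs was -0.00172 with DESeq2 size factors, -0.00299 with the DESeq2 test and -0.0732 to 0.17 without 1 library.

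Same-numbered libraries of different groups correlated at -0.187 to 0.114 in their deviations, and in 0 of the 8 pairs of groups did every library correlate best with its own number. The numbers were therefore not taken as pairs. An IP and its input may still share a lysate, and with 3 libraries per group these correlations cannot show that such pairs are absent. With the replicate block the counts were 153 (wt) and 189 (Mkrn3ox) genes for cytoplasm against total, 6588 (GFP) and 3511 (GFP-Mkrn3) for pull-down against input, and 3195 between baits. The block within line or plasmid, which pairs an IP with the input of its number, gave 158 and 167, 6218 and 3001, and 2642. Firre lost its wt call under the replicate block (-4.40, adjusted p = 0.0744) and under the block within the line (-4.43, adjusted p = 0.0935).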

Other observations

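Genes called lower in the wt cytoplasm than in total RNA were followed onto the beads. Of 159 such genes, 84 were tested in both experiments. Of these 84, 41.7% were higher in the GFP pull-down than in its input and 17.9% lower, against 30.7% and 27.1% of all 4406 genes tested in both. With GFP-Mkrn3 the shares were 28.6% and 9.52%, against 11.4% and 19.9%. Of 18 genes called higher in the cytoplasm, 11.1% were higher and 33.3% lower in the GFP pull-down. Malat1, Kcnq1ot1 and Firre are among the 84, and without them the median log2 change on GFP beads was 0.19 over 81 genes, against 0.04 over all. These shares come with no test. They join rows by identifier across tables of unknown strand handling, and the deposited gene types, which differed in both experiments, were not held apart.

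In the fractionation the deposited gene types differed too. Of 345 tested lncRNA rows other than the members, 13% were lower in the wt cytoplasm and 1.16% higher, and of 82 TEC rows 24.4% and 3.66%. Of 4524 protein-coding rows 1.81% were lower and 0.464% higher. In Mkrn3ox cells 11.3% of the lncRNA rows, 22% of the TEC rows and 2.59% of the protein-coding rows were lower in the cytoplasm. Rows with few counts could pass the filter on low counts through total RNA, as Malat1, Kcnq1ot1 and Firre did. A call of higher was hardly open to such rows, so these shares are no test of the gene types.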
